A study of Mus musculus with 24 samples.

Results

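The 34 genes described here encode proteins that carry fatty acids into muscle cells, move them into mitochondria and break them down there by beta-oxidation, together with regulators of that flow. They were given as a list of symbols, matched to the Ensembl identifiers of the count files, and all 34 were found among the 54532 genes counted. All 34 are protein-coding and all 34 passed the filter on low counts in every comparison. RNA was sequenced from the left gastrocnemius, a calf muscle, of wild-type C57/BL6 mice in 24 samples, with 4 samples in each combination of sex and condition. Sedentary controls had 2 injections of saline at pH 7.2, each 20 µl and spaced by 5 days. Sedentary pain mice were injected at pH 5.0, with volume and spacing unchanged, and the muscle was made to contract electrically for 6 minutes right before the second of them. Active pain mice had running wheels for 8 weeks and then the same acid and contraction. All samples carry the time label 24 h. No group ran without pain or had acid without contraction, so the parts of the procedure cannot be told apart, and the age of the mice is not given in the sources used here.

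Skeletal muscle takes up long-chain fatty acids through membrane and cytosolic carrier proteins, couples them to coenzyme A, and passes them across the mitochondrial membranes as carnitine esters. In the matrix each round of beta-oxidation is a dehydrogenation, a hydration, a further dehydrogenation and a thiolytic cleavage, and the electrons go to the respiratory chain through the electron transfer flavoprotein. Malonyl-CoA holds back entry by inhibiting carnitine palmitoyltransferase 1, and many of these genes are known targets of nuclear receptors of the PPAR and ERR families with the coactivator PGC-1α. Slow oxidative fibres are known to hold more of this machinery than the fast fibres that make up most of the mouse gastrocnemius.

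Library totals ran from 17612139 to 34039699 counts, and values are given as CPM, counts per 1000000 of the scaled library total. All 20 markers of muscle fibres were detected in every sample, and their summed level was 164287 to 352059 CPM. These markers show skeletal muscle and cannot tell the gastrocnemius from other muscles. Some libraries stood apart from their group. Macrophage and monocyte markers (15 genes, none at 0 in any sample) summed to 119 to 268 CPM in female controls, and to 619, 1107, 5120 and 7602 CPM in replicates 1 to 4 of female sedentary pain. Adipocyte markers (10 genes) summed to 4872 and 4594 CPM in female controls 1 and 2 and to 8846 and 6787 CPM in controls 3 and 4. Car3, which muscle also expresses, made up much of these sums. In male sedentary pain, replicate 1 had a macrophage marker sum of 1063 CPM where the other 3 had 175 to 593 CPM. Replicate 2 of male active pain had 671 CPM, and the others 280.4 to 470.3 CPM. Library numbers split replicates 1 and 2 from replicates 3 and 4 in every group, and values within each of these pairs are given for the female genes below. The labels number the samples of a group and say no more of their origin, so p-values measure the spread between these samples.

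In female muscle, 20 of the 34 genes differed between sedentary pain and control, where 33.5% of all tested genes did (edgeR quasi-likelihood test, adjusted p under 0.05). Of these, 19 were lower with pain, against 13.9% of all genes, and 1, Cpt1a, was higher, against 19.6%. At an unadjusted p under 0.05 the count was 24, against 47.6% of all genes, and 30 genes had a log2 fold change below 0, against 51.3%. The median log2 fold change over the 34 genes was -0.57, against -0.02 over all genes. The groups did not overlap in 15 genes that were lower and in 1 that was higher, where 26.3% of all genes did not overlap in either direction and 15.3% were higher. Summed over the 34 genes, the level was 5241 ± 642 CPM (SD, n = 4) in controls, 3487 ± 690.1 CPM in sedentary pain and 4766 ± 318 CPM in active pain. In bulk tissue, fewer cells of a type and less RNA per cell cannot be told apart. The median log2 ratio of the 34 genes to the control mean was -0.26, -0.43, -0.65 and -0.86 in sedentary pain replicates 1 to 4, and the macrophage marker sum was highest in replicates 3 and 4. Of 7 neutrophil markers tested, 6 were higher in female sedentary pain (median 5.89), and their sum was 0.937 to 4.16 CPM in controls and 24.4, 296, 70.3 and 114 CPM in sedentary pain replicates 1 to 4. All 4 T, NK and B cell markers tested were higher (median 4.67), with sums of 0.463 to 2.72 CPM in controls and 4.20, 7.01, 58.2 and 97.8 CPM in sedentary pain. Of 8 fibroblast markers 2 were higher (Col1a1 and Col1a2), and of 10 endothelial markers 2 were lower. The part of these other cells in the fall was not tested.

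**Figure D1:**
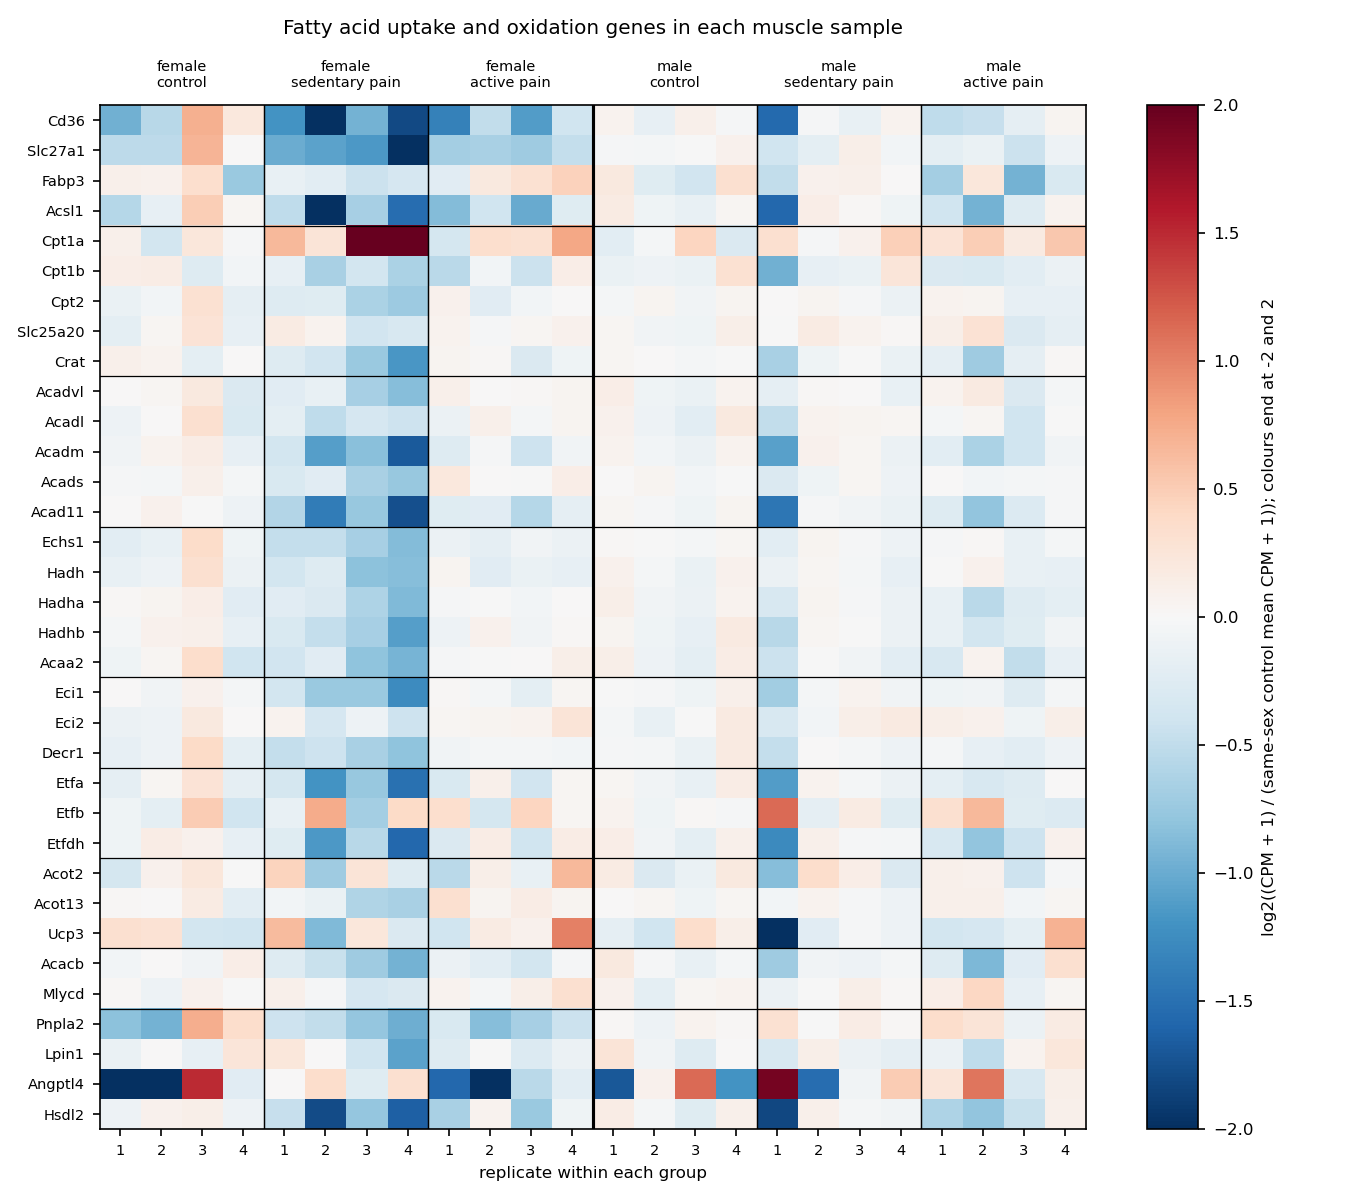
Level of each of the 34 genes (rows, grouped by role) in each of the 24 samples (columns), as the log2 ratio of CPM + 1 to the mean of the same-sex controls, with colours ending at -2 and 2. Most rows are blue in the 4 female sedentary pain columns and in male sedentary pain replicate 1, while Cpt1a is red in female sedentary pain.

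Of the 4 uptake and activation genes, 3 were lower in female sedentary pain, and Cd36 and Slc27a1 had the largest falls of the 19 genes. Cd36 (ENSMUSG00000002944, chromosome 5, 17781690 to 17888801), a membrane receptor that takes up long-chain fatty acids, had 132, 174, 423 and 298 CPM in female control replicates 1 to 4. It had 111, 48.1, 133 and 73.1 CPM in sedentary pain and 100.5, 183, 118 and 195 CPM in active pain. Controls 3 and 4 were high, and the lowest control overlapped the highest sedentary pain value. The fall in sedentary pain was 2.84-fold (log2 fold change -1.51 ± 0.41 SE, adjusted p = 0.0183). Without controls 3 and 4 together it was -0.77 and no longer past the threshold (adjusted p = 0.162), and without sedentary pain replicate 4 it was -1.39 (adjusted p = 0.0559). Male values of Cd36 were 178, 150.4, 182 and 166 CPM in controls, 56.5, 166, 152 and 177 CPM in sedentary pain and 118, 123, 149 and 176 CPM in active pain, and only sedentary pain replicate 1 lay far from the rest.

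Slc27a1 (ENSMUSG00000031808, chromosome 8, 71568882 to 71587302), a fatty acid transport protein of the cell surface, had 72.2, 71.9, 167 and 105 CPM in the female controls. With sedentary pain it had 51.5, 49.1, 46.6 and 25.3 CPM, all below every control, and with active pain 64.2, 65.8, 62.8 and 74.4 CPM. The fall was 2.45-fold (log2 fold change -1.29 ± 0.28 SE, adjusted p = 0.00772), with a log2 fold change of -0.77 without controls 3 and 4 (adjusted p = 0.0559). In males Slc27a1 lay at 72.2, 71.4, 72.7 and 77.7 CPM in controls, 55.6, 64.1, 80.2 and 70.9 CPM in sedentary pain and 64.2, 66.8, 54.5 and 68.1 CPM in active pain. Acsl1, the main long-chain acyl-CoA synthetase of muscle, was 2.11-fold lower in female sedentary pain (log2 fold change -1.08 ± 0.34 SE, adjusted p = 0.0319), from 287 ± 88.4 to 138 ± 62.8 CPM, with overlapping groups. The call of Acsl1 ended without female control 2, control 3, control 4, sedentary pain replicate 2 or sedentary pain replicate 4, each left out alone (log2 fold changes -1.12 to -0.85, adjusted p 0.0526 to 0.0921). Fabp3 (ENSMUSG00000028773, chromosome 4, 130308595 to 130315463), the cytosolic fatty acid binding protein of muscle and heart, did not pass the threshold (log2 fold change -0.30 ± 0.22 SE, adjusted p = 0.287). Its values were 219, 217, 259.7 and 122 CPM in female controls, 184, 177, 151 and 163 CPM in sedentary pain and 174, 234, 252 and 281 CPM in active pain. Males had 268, 199, 179.6 and 293, then 168, 249.6, 253 and 236, then 146, 276, 122 and 191 CPM in the same order of groups, with a wide spread in each.

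Adipocyte markers moved with these uptake genes. Of the 10 markers, 9 were tested in females and 8 were lower in sedentary pain (median log2 fold change -3.03). Their summed level was 4594 to 8846 CPM in controls, 1473 to 3886 CPM in sedentary pain and 3219.85 to 4531 CPM in active pain. Ucp1, the marker of brown fat, was at 0 in 22 of 24 samples. Car3, which muscle also expresses, made up much of the sum, with means of 4457 CPM in female controls and 2318 CPM in sedentary pain. Fat cells express Cd36, Slc27a1, Acsl1, Pnpla2 and Angptl4 strongly, and the part of adipocyte RNA in their values was not tested.

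The carnitine shuttle held the single gene of the list that rose. Cpt1a (ENSMUSG00000024900, chromosome 19, 3322334 to 3385733) encodes the carnitine palmitoyltransferase 1 of liver and most non-muscle cells. It had 6.37, 4.33, 7.03 and 5.75 CPM in female controls, 9.76, 7.18, 27.5 and 33.4 CPM in sedentary pain and 4.36, 7.7, 7.47 and 10.7 CPM in active pain. Replicates 3 and 4 of sedentary pain stood well above all other samples, and replicate 2 was only just above the highest control. The rise was 3.27-fold (log2 fold change 1.71 ± 0.45 SE, adjusted p = 0.0167). The log2 fold change was 0.66 in replicates 1 and 2 alone (adjusted p = 0.313) and 2.24 in replicates 3 and 4 alone (adjusted p = 0.0019). It was 1.34 without sedentary pain replicate 4 (adjusted p = 0.0515) and 1.82 without female controls 3 and 4 together (adjusted p = 0.0667). All 15 macrophage and monocyte markers were higher in the same comparison (median log2 fold change 4.44), with the 2 largest sums in the same replicates 3 and 4, and their part in the Cpt1a value was not tested. Male Cpt1a values were 5.6, 6.43, 9.26 and 5.25 CPM in controls, 8.56, 6.49, 7.1 and 9.57 CPM in sedentary pain and 8.18, 9.72, 7.63 and 10.1 CPM in active pain, which overlapped.

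Cpt1b (ENSMUSG00000078937, chromosome 15, 89416405 to 89425863), the carnitine palmitoyltransferase 1 isoform of muscle, was counted at very low levels. It had 0.823, 0.841, 0.391 and 0.611 CPM in female controls, 0.492, 0.0584, 0.292 and 0.0707 CPM in sedentary pain and 0.147, 0.6, 0.231 and 0.821 CPM in active pain. The log2 fold change in sedentary pain was -1.48 ± 0.64 (SE, adjusted p = 0.0868), and of 27 alternatives it passed the threshold only without sedentary pain replicate 1 (-2.11, adjusted p = 0.0276). Males had 0.853, 0.874, 0.848 and 1.51 CPM in controls, 0.0404, 0.803, 0.845 and 1.38 CPM in sedentary pain and 0.646, 0.64, 0.753 and 0.871 CPM in active pain. The annotated gene Gm44502 covers 81.4% of the exonic bases of Cpt1b on the same strand, had at most 0.0339 CPM itself, and the Cpt1b level is uncertain.

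Of the other 3 shuttle genes, 2 were lower in female sedentary pain. Crat (ENSMUSG00000026853, chromosome 2, 30400471 to 30415813), a matrix enzyme that exchanges acetyl groups between coenzyme A and carnitine, had 657, 638, 531 and 614 CPM in female controls. It had 509.9, 468, 364 and 271 CPM with sedentary pain, below every control, and 633, 622, 501 and 576 CPM with active pain (log2 fold change -0.61 ± 0.19 SE, adjusted p = 0.0285, sedentary pain against control). Male values of Crat were 709, 691, 671 and 684 CPM, 437, 652, 688 and 629.5 CPM and 609, 419, 606 and 703 CPM in the 3 conditions, low in sedentary pain replicate 1 and active pain replicate 2. Cpt2, which hands the acyl group back to coenzyme A inside the inner membrane, fell 1.39-fold (log2 fold change -0.47 ± 0.15 SE, adjusted p = 0.0354) from 67.2 ± 11.1 to 49.03 ± 8.69 CPM without overlap. The call of Cpt2 ended without female control 1, control 2, control 3, sedentary pain replicate 3, sedentary pain replicate 4 or active pain replicate 4, each left out alone (log2 fold changes -0.50 to -0.35, adjusted p 0.0503 to 0.114). The call of Crat ended without female control 1, control 2, control 4, sedentary pain replicate 3 or sedentary pain replicate 4, each left out alone (log2 fold changes -0.62 to -0.45, adjusted p 0.0584 to 0.0688). Slc25a20, the translocase of acylcarnitines, had 61.5 ± 9.71 CPM in controls and 57.45 ± 10.9 CPM in sedentary pain (log2 fold change -0.12 ± 0.15 SE, adjusted p = 0.554).

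Of the 5 acyl-CoA dehydrogenases, which catalyse the first step of each round for different chain lengths, 3 were lower in female sedentary pain. Acadm (ENSMUSG00000062908, chromosome 3, 153922357 to 153944632), the medium-chain enzyme, had 288, 318, 334 and 268 CPM in controls. It had 233, 140.5, 169.5 and 93.7 CPM in sedentary pain, all below the controls, and 252, 297, 227 and 288 CPM in active pain. The fall was 1.92-fold (log2 fold change -0.94 ± 0.23 SE, adjusted p = 0.0124). Male values of Acadm were 319, 292, 279 and 318 CPM in controls, 142, 319, 312 and 278 CPM in sedentary pain and 259.6, 194, 230.2 and 287 CPM in active pain. Sedentary pain replicate 1 was the low male sample. Acad11 (ENSMUSG00000090150, chromosome 9, 104063377 to 104127725), a further member of the family, had 69.99, 74.00, 69.2 and 64.9 CPM in female controls, 45.8, 25.8, 40.8 and 19.8 CPM in sedentary pain and 58.3, 59.2, 46.5 and 61.5 CPM in active pain. These groups were fully separate, and the fall with sedentary pain was 2.12-fold (log2 fold change -1.09 ± 0.23 SE, adjusted p = 0.0062). In males Acad11 had 60.7, 58.3, 55.8 and 61.3 CPM in controls, 21.1, 57.97, 56.4 and 53.9 CPM in sedentary pain and 49.3, 33.9, 48.9 and 58.3 CPM in active pain.

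Acads (ENSMUSG00000029545, chromosome 5, 115110299 to 115119346), the short-chain enzyme, had 86.9, 85.9, 94.3 and 85.6 CPM in female controls and 70.9, 75.3, 56.1 and 51.9 CPM in sedentary pain, without overlap (log2 fold change -0.49 ± 0.13 SE, adjusted p = 0.0165). The call of Acads ended without female sedentary pain replicate 4 (log2 fold change -0.38, adjusted p = 0.0525). It had 102, 88.3, 87.6 and 96.7 CPM in active pain, and the 12 male values lay between 60.9 and 77.9 CPM. By condition, males had 75.5, 77.9, 71.7 and 74.1 CPM in controls, 60.9, 70.2, 76.99 and 69.7 CPM in sedentary pain and 74.9, 72.3, 72.9 and 73.8 CPM in active pain. The 2 enzymes for longer chains missed the threshold, with log2 fold changes of -0.46 ± 0.17 for Acadvl (adjusted p = 0.0506) and -0.38 ± 0.14 for Acadl (adjusted p = 0.0605). Acadvl went from 292 ± 40.2 to 214 ± 49.6 CPM and Acadl from 189 ± 35.5 to 147 ± 13.5 CPM. Exons of Dvl2 on the other strand overlap 42.9% of the exonic bases of Acadvl, and the labels name a stranded kit but not the use of strand in counting.

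All 5 genes of the later steps were lower in female sedentary pain, by 1.41-fold to 1.56-fold. Echs1 (ENSMUSG00000025465, chromosome 7, 140105710 to 140116476), the short-chain enoyl-CoA hydratase, had 114, 119, 169 and 124 CPM in controls, 93.8, 94.02, 82.2 and 71.9 CPM in sedentary pain and 121, 116, 125 and 122 CPM in active pain. Sedentary pain lay below both other groups (log2 fold change -0.64 ± 0.14 SE, adjusted p = 0.00832). Corrected for GC content and length, the change of Echs1 was -0.43 and just missed the threshold (adjusted p = 0.0539). Male values of Echs1 were 76.7, 74.9, 73.4 and 77.7 CPM, 65.1, 78.95, 74.1 and 70.7 CPM and 74.1, 77.05, 68.1 and 73.8 CPM in controls, sedentary pain and active pain. Hadh (ENSMUSG00000027984, chromosome 3, 131233419 to 131272101), a 3-hydroxyacyl-CoA dehydrogenase, had 158, 162, 219 and 161 CPM in female controls, 136, 147, 98.98 and 96.3 CPM in sedentary pain and 183, 149, 159 and 156 CPM in active pain (log2 fold change -0.57 ± 0.17 SE, adjusted p = 0.0252). Control 3 was the high value. The call of Hadh ended without female control 3, sedentary pain replicate 3 or sedentary pain replicate 4, each left out alone (log2 fold changes -0.47 to -0.45, adjusted p 0.0568 to 0.0799). In males Hadh had 152, 139, 131 and 153 CPM in controls, 132, 147, 140.3 and 128 CPM in sedentary pain and 142, 152, 129.6 and 128 CPM in active pain. Acaa2, the thiolase, fell 1.49-fold (log2 fold change -0.58 ± 0.19 SE, adjusted p = 0.0343) from 119 ± 25.8 to 80.9 ± 19.0 CPM, with overlapping groups. The call of Acaa2 ended without female control 1, control 2, control 3, sedentary pain replicate 3 or sedentary pain replicate 4, each left out alone (log2 fold changes -0.59 to -0.44, adjusted p 0.0611 to 0.106).

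Hadha (ENSMUSG00000025745, chromosome 5, 30118304 to 30155162) and Hadhb (ENSMUSG00000059447, chromosome 5, 30155248 to 30184593) encode the 2 subunits of the mitochondrial trifunctional protein, which handles long chains. The genes lie head to head on opposite strands. In female replicates 1 to 4 Hadha had 308, 314, 329.9 and 257 CPM in controls, 258, 247, 198 and 163 CPM in sedentary pain and 297, 300.2, 289.6 and 303 CPM in active pain. Its male values were 299, 262, 254 and 290.3 CPM in controls, 220.0, 286, 271 and 253 CPM in sedentary pain and 248, 189, 229.8 and 240.3 CPM in active pain. Hadhb had 225, 243, 247 and 205 CPM in female controls, 186, 165, 146 and 107 CPM in sedentary pain and 215, 244, 218 and 235 CPM in active pain. Both subunits fell in female sedentary pain: the log2 fold change was -0.50 ± 0.15 for Hadha (adjusted p = 0.0289) with 1 overlapping sample, and -0.63 ± 0.16 for Hadhb (adjusted p = 0.0149) with none. The call of Hadha ended without female control 1, control 2, control 3, sedentary pain replicate 3 or sedentary pain replicate 4, each left out alone (log2 fold changes -0.48 to -0.36, adjusted p 0.058 to 0.0733). Corrected for GC content and length, neither subunit passed the threshold, with -0.35 for Hadha (adjusted p = 0.0851) and -0.26 for Hadhb (adjusted p = 0.223). Male Hadhb values were 229.8, 208, 197 and 252 CPM in controls, 151, 227, 219.7 and 204 CPM in sedentary pain and 200.2, 172, 186 and 211 CPM in active pain. The 85 bases between the annotated starts of the genes, chr5:30155163-30155247 in GRCm38, are shown because both genes begin here and point away from each other.
Hadha–Hadhb, strand of Hadhb: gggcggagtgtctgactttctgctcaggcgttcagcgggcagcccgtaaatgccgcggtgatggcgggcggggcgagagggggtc

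Of the 3 enzymes that prepare the double bonds of unsaturated fatty acids, 2 fell in female sedentary pain. Eci1 (ENSMUSG00000024132, chromosome 17, 24426641 to 24439348), an enoyl-CoA isomerase, had 77.2, 72.7, 81.8 and 74.8 CPM in female controls, 59.1, 45.6, 45.5 and 31.5 CPM in sedentary pain and 77.7, 74.6, 66.6 and 79.1 CPM in active pain. Every sedentary pain value lay below the controls (log2 fold change -0.77 ± 0.16 SE, adjusted p = 0.00631). In males it had 68.7, 67.5, 64.97 and 74.2 CPM in controls, 42.2, 67.1, 72.2 and 65.4 CPM in sedentary pain and 65.04, 65.8, 57.6 and 67.1 CPM in active pain, with a single low value in sedentary pain replicate 1. Decr1 (ENSMUSG00000028223, chromosome 4, 15917240 to 15945507), the 2,4-dienoyl-CoA reductase, had 102, 106, 149 and 99.7 CPM, 82.1, 85.6, 72.2 and 64.7 CPM and 109, 111, 111 and 109 CPM in the female controls, sedentary pain and active pain. Its sedentary pain values were below all others (log2 fold change -0.60 ± 0.15 SE, adjusted p = 0.0116). Decr1 in males had 101, 100.3, 93.4 and 117 CPM, 73.7, 103, 99.5 and 96.3 CPM and 99.8, 91.9, 89.2 and 96.2 CPM in that order of conditions. Eci2, the second isomerase, had 56.7 ± 5.79 and 49.9 ± 7.90 CPM in female controls and sedentary pain (log2 fold change -0.20 ± 0.13 SE, adjusted p = 0.236).

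The electron transfer flavoprotein takes electrons from the acyl-CoA dehydrogenases to its oxidoreductase in the inner membrane. Etfa (ENSMUSG00000032314, chromosome 9, 55454508 to 55512243), its alpha subunit, had 138, 159.9, 188 and 138 CPM in female controls, 122, 67.9, 92.1 and 55.2 CPM in sedentary pain and 126, 167, 119 and 160.3 CPM in active pain. The sedentary pain values lay below every control (log2 fold change -0.91 ± 0.23 SE, adjusted p = 0.0149). Male Etfa was at 134, 124, 118 and 145 CPM in controls, 59.7, 137, 127 and 119.8 CPM in sedentary pain and 114, 104, 109 and 130.1 CPM in active pain. Etfdh, the oxidoreductase, was 1.76-fold lower (log2 fold change -0.81 ± 0.26 SE, adjusted p = 0.0329), from 116 ± 11.3 to 66.5 ± 26.7 CPM, without overlap. The call of Etfdh ended under 13 of 28 alternatives, the most of the 20 called genes. The call of Etfdh ended without female control 1, control 2, control 3, control 4, sedentary pain replicate 2 or sedentary pain replicate 4, each left out alone (log2 fold changes -0.87 to -0.61, adjusted p 0.052 to 0.075). Etfb, the beta subunit, had 20.8 ± 6.42 CPM in controls and 23.6 ± 10.1 CPM in sedentary pain (log2 fold change 0.16 ± 0.31 SE, adjusted p = 0.703). Gm45233 covers 53.0% of the exonic bases of Etfb on the same strand, so its level is uncertain.

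Among the genes that set the level of malonyl-CoA, Acacb (ENSMUSG00000042010, chromosome 5, 114146535 to 114250761), the acetyl-CoA carboxylase of the mitochondrial surface, had 280.5, 293, 278 and 319.7 CPM in female controls. With sedentary pain it had 244, 215, 178 and 151 CPM, below every control, and with active pain 271, 252, 227 and 289 CPM (log2 fold change -0.59 ± 0.15 SE, adjusted p = 0.0156, sedentary pain against control). Male values of Acacb were 446, 385, 350.0 and 378 CPM in controls, 237, 373, 363 and 379 CPM in sedentary pain and 325, 208, 332 and 485 CPM in active pain, lowest in sedentary pain replicate 1 and active pain replicate 2. Mlycd, which removes malonyl-CoA, had 83.5 ± 4.69 CPM in controls and 76.7 ± 11.3 CPM in sedentary pain (log2 fold change -0.14 ± 0.13 SE, adjusted p = 0.391).

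None of the thioesterases and uncoupling genes passed the threshold. Ucp3 (ENSMUSG00000032942, chromosome 7, 100472990 to 100486432), the uncoupling protein of muscle and a known PPAR target, had 63.4, 62.2, 39.1 and 38.4 CPM in female controls, 79.7, 26.98, 59.4 and 41.4 CPM in sedentary pain and 38.1, 57.3, 53.8 and 103 CPM in active pain. In males it had 59.00, 50.7, 86.01 and 72.5 CPM in controls, 15.8, 56.9, 66.01 and 62.6 CPM in sedentary pain and 51.6, 52.7, 58.3 and 109 CPM in active pain. The groups overlapped throughout, and the 95% interval of the female change ran from -0.69 to 0.72 on the log2 scale around 0.02. Acot13, a thioesterase, had a log2 fold change of -0.36 ± 0.16 (adjusted p = 0.0909) from 74.1 ± 7.86 CPM. Acot2, a mitochondrial thioesterase near 4 CPM, had -0.01 ± 0.36 (adjusted p = 0.987).

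The remaining 4 genes are Hsdl2 and 3 that act on stored lipid or as lipid signals. Hsdl2 (ENSMUSG00000028383, chromosome 4, 59581563 to 59618689), a short-chain dehydrogenase of peroxisomes, had 43.5, 49.6, 50.9 and 43.5 CPM in female controls, 33.8, 12.9, 27.1 and 14.5 CPM in sedentary pain and 29.5, 49.3, 27.7 and 43.9 CPM in active pain. It was 2.14-fold lower in sedentary pain, without overlap (log2 fold change -1.10 ± 0.30 SE, adjusted p = 0.0189). The call of Hsdl2 ended without female sedentary pain replicate 4 (log2 fold change -0.92, adjusted p = 0.0551). Its male values were 63.2, 55.6, 48.04 and 61.4 CPM in controls, 15.5, 61.1, 55.7 and 54.5 CPM in sedentary pain and 36.9, 32.6, 41.7 and 61.3 CPM in active pain. Angptl4 (ENSMUSG00000002289, chromosome 17, 33773750 to 33781830), a secreted inhibitor of lipoprotein lipase, had 1.86, 1.56, 45.1 and 12.9 CPM in female controls, 15.5, 19.8, 12.8 and 19.5 CPM in sedentary pain and 4.51, 1.59, 10.2 and 13.2 CPM in active pain. Control 3 was the highest of the 24 samples, controls 1 and 2 were among the lowest, and the change in sedentary pain was 0.11 ± 0.89 (SE, adjusted p = 0.931). Without controls 3 and 4 it was 3.26 (adjusted p = 0.0302), and it was 3.35 in replicates 1 and 2 and -0.85 in replicates 3 and 4 (adjusted p = 0.0477 and 0.285). Males had 1.23, 6.64, 14.8 and 2.14 CPM in controls, 26.2, 1.51, 5.87 and 9.24 CPM in sedentary pain and 7.54, 14.04, 4.79 and 6.85 CPM in active pain. Pnpla2, the triglyceride lipase ATGL, had 332 ± 184 CPM in female controls and 212 ± 37.1 CPM in sedentary pain (log2 fold change -0.66 ± 0.33 SE, adjusted p = 0.132). Its log2 fold change was 0.43 in replicates 1 and 2 and -1.43 in replicates 3 and 4 (adjusted p = 0.277 and 0.00558). Lpin1, a phosphatidate phosphatase, had a log2 fold change of -0.24 ± 0.23 (adjusted p = 0.414).

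**Figure D2:**
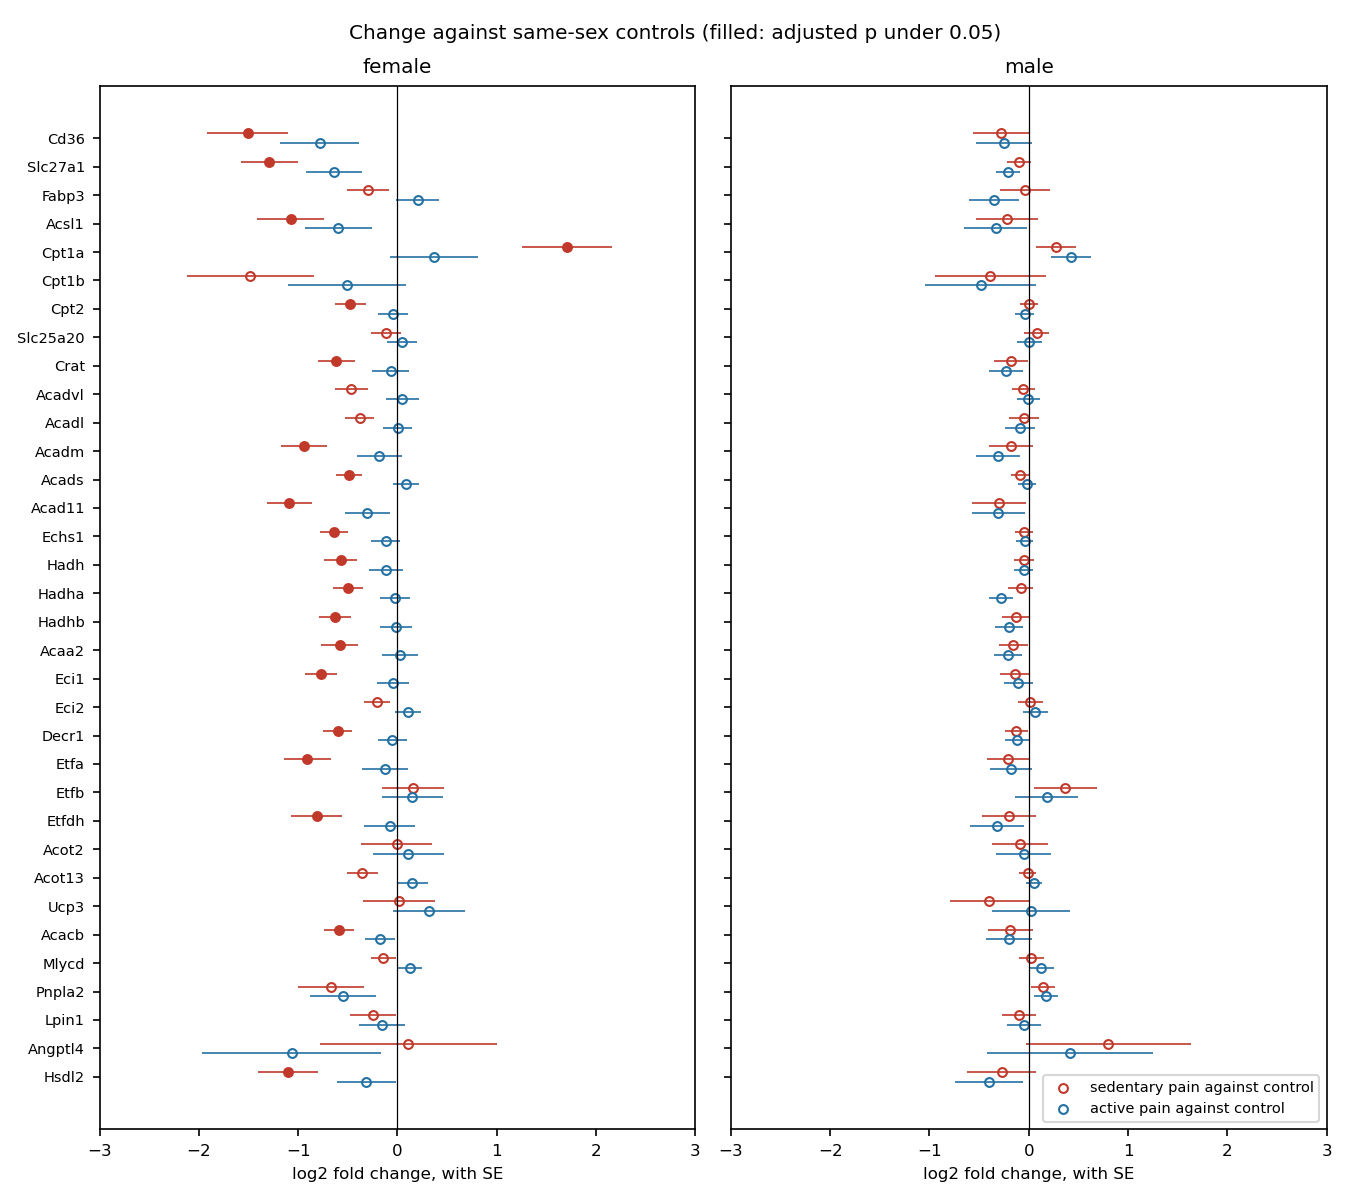
Log2 fold change with SE of each gene in sedentary pain (red) and active pain (blue) against same-sex controls, females left and males right, n = 4 per group; filled points passed an adjusted p of 0.05. In females 20 red points are filled, 19 of them left of 0, and no blue point is filled; in males no point is filled.

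The calls and medians of female sedentary pain against control differed between the replicate pairs, a difference that was not itself tested. Within replicates 3 and 4 alone, 16 of the 34 genes passed the threshold, where 22.4% of all genes did, and the median was -0.86. The 16 were Pnpla2 and all of the 20 genes but Acad11 (-1.16, adjusted p = 0.0533), Hadha (-0.71, adjusted p = 0.0563), Acaa2 (-0.91, adjusted p = 0.0547), Etfdh (-0.97, adjusted p = 0.0991) and Hsdl2 (-1.20, adjusted p = 0.0509). Within replicates 1 and 2 alone the median was -0.30 and 1 gene passed, Angptl4, which was higher, where 1.67% of all genes passed. The 19 genes that were lower in all samples then had log2 fold changes between -1.01 for Acad11 (adjusted p = 0.126) and -0.16 for Cpt2 (adjusted p = 0.581). Cd36 was at -0.94 in replicates 1 and 2 (adjusted p = 0.263) and -1.82 in replicates 3 and 4 (adjusted p = 0.0172), and Slc27a1 at -0.52 (adjusted p = 0.155) and -1.93 (adjusted p = 0.0106). Leaving out single libraries gave 9 called genes without sedentary pain replicate 4, where 16.9% of all genes were called, to 24 without sedentary pain replicate 1, where 44.9% were. The 9 were all lower, and Cpt1a was no longer called. Without female controls 3 and 4 together, 4 genes passed, where 16.5% of all genes did: Acad11, Eci1 and Decr1 were lower and Angptl4 was higher, and the median was -0.48. Corrected for GC content and length the count was again 20, where 35.7% of all genes were called, but Echs1, Hadha and Hadhb dropped out and Acadvl (-0.73, adjusted p = 0.0127), Acadl (-0.50, adjusted p = 0.0166) and Acot13 (-0.60, adjusted p = 0.014) came in, and the changes of Cpt2, Acads and Acaa2 grew to -0.74, -0.78 and -0.89. No called member changed direction in any of the 28 alternatives of this comparison.

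The size of the fall also depended on the scale. Of the 20 muscle fibre markers, 4 were lower in female sedentary pain (Actn3, Ryr1, Ttn and Neb), 1 was higher (Des), and their median log2 fold change was -0.41. When samples were scaled by these markers in place of all genes, the median of all genes moved to 0.45, and 2 of the 34 genes passed the threshold, where 29.2% of all genes did. These were Cpt1a, higher by 2.39 (adjusted p = 0.0152), and Slc27a1, lower at -0.94 (adjusted p = 0.0455). The median of the 34 genes was then -0.18, with 12 above and 22 below 0. The 10 markers of slow and oxidative fibres had a median log2 fold change of -1.46 with 1 called lower (Myh2), and summed to 596 to 2939 CPM in controls and 323 to 950.03 CPM in sedentary pain. The 37 genes of the mitochondrial genome took 9.26% ± 1.17 (SD, n = 4) of counts in female controls and 5.17% ± 2.41 in sedentary pain. The part of fibre type, fibre content and mitochondrial content in the fall was not tested.

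**Figure D3:**
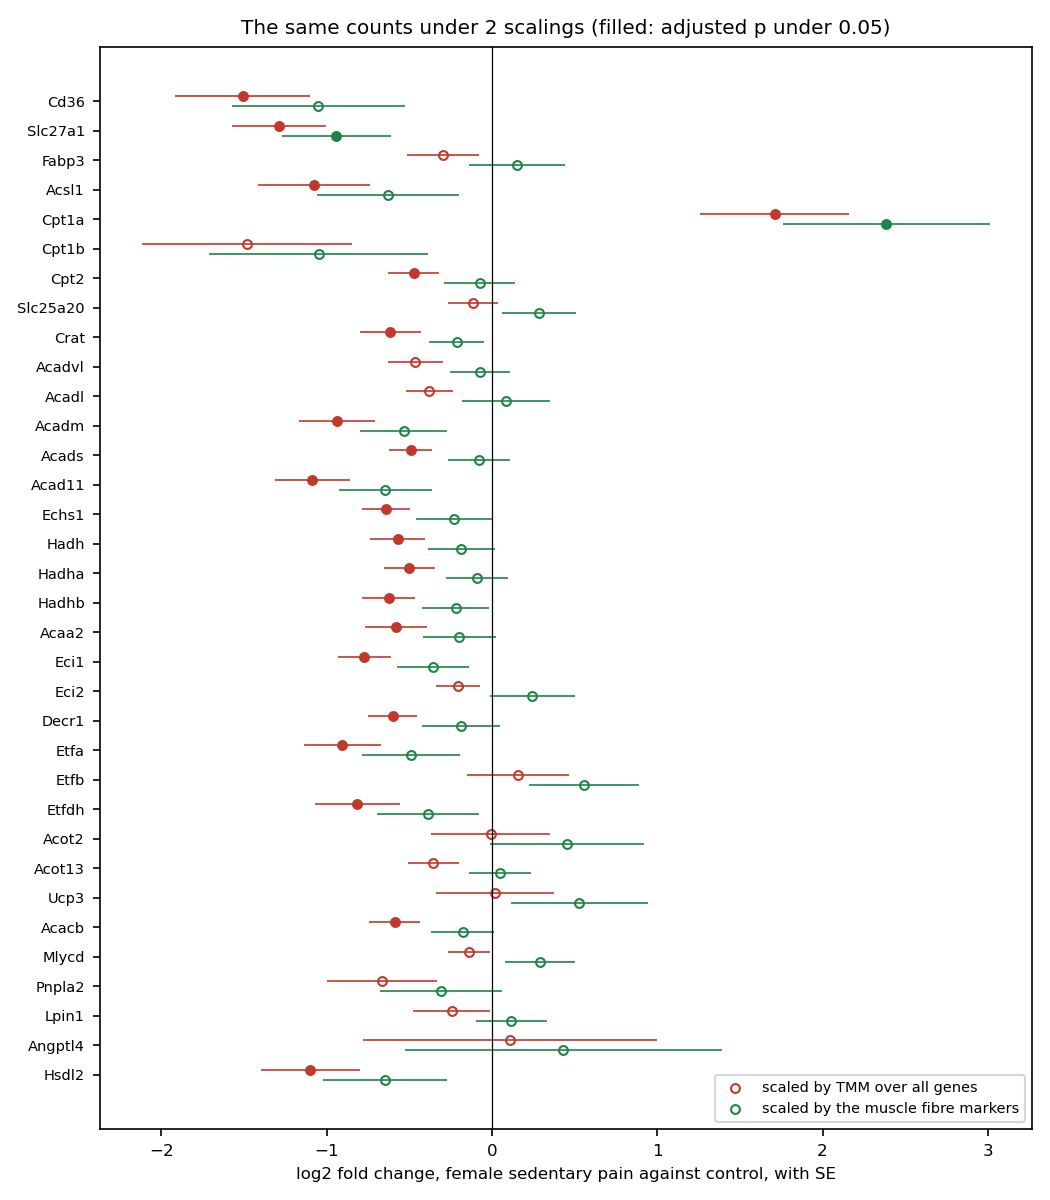
Log2 fold change with SE of each gene in female sedentary pain against control, scaled by TMM over all genes (red) and by the 20 muscle fibre markers (green), n = 4 per group; filled points passed an adjusted p of 0.05. All green points lie to the right of the red ones, and 2 green points are filled, Cpt1a and Slc27a1.

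In female active pain, which was set against the same controls, 0 of the 34 genes passed the threshold, as did 0 of 14511 genes tested (0%). At an unadjusted p under 0.05 there was 1 gene, against 7.03% of all genes (Slc27a1, log2 fold change -0.64 ± 0.28 SE, adjusted p = 0.69), and DESeq2 also called 0. The median log2 fold change was -0.05. Acad11 was the 1 gene whose groups did not overlap, against 5.44% of all genes in either direction and 1.83% lower, with 56.4 ± 6.74 CPM against 69.5 ± 3.72 CPM in controls. The interval of its change ran from -0.74 to 0.14. Among the genes that fell in sedentary pain, intervals in active pain against control were -0.32 to 0.28 for Hadha and -0.33 to 0.30 for Hadhb. They were -0.36 to 0.27 for Eci1 and -0.17 to 0.34 for Acads. Those of Cd36 (-1.57 to 0.00) and Acsl1 (-1.25 to 0.06) were wider. Adipocyte markers were at a median of -2.55 in this comparison, with 0 of 9 called and 8 at an unadjusted p under 0.05. Macrophage and monocyte markers were above 0 in 15 of 15 (median 1.40, 9 at an unadjusted p under 0.05, 8 without overlap) and neutrophil markers in 7 of 7 (median 4.58, 7 at an unadjusted p under 0.05, 2 without overlap), with 0 called.

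Set directly against sedentary pain, active pain in females was higher in 7 of the 34 genes and lower in 0, where 11.9% of all genes differed, 2.51% being higher and 9.41% lower. The 7 were Eci1 (log2 fold change 0.73 ± 0.16 SE, adjusted p = 0.0328), Acads (0.58 ± 0.13), Hadhb (0.61 ± 0.16), Decr1 (0.55 ± 0.15), Echs1 (0.52 ± 0.14), Acad11 (0.79 ± 0.23) and Etfa (0.78 ± 0.23), with adjusted p up to 0.0486. They belong to 4 steps: dehydrogenation, the later steps, unsaturated chains and electron transfer. All 7 were among the 19 genes that were lower in sedentary pain against control. These comparisons share the sedentary pain samples, so the counts are not independent. Counted by an unadjusted p under 0.05 there were 23 genes, against 32.2% of all genes, and 14 genes were higher without overlap, against 5.42% of all genes. Acadm (log2 fold change 0.76 ± 0.23 SE, adjusted p = 0.0517) and Acaa2 (log2 fold change 0.60 ± 0.19 SE, adjusted p = 0.0541) were just over the threshold, as was Cpt1a, at -1.34 ± 0.45 (adjusted p = 0.0666). The count was 0 without sedentary pain replicate 3 or 4, or without active pain replicate 1, 2 or 4, where at most 0.0204% of all genes were called, and 19 without sedentary pain replicate 1, where 29% were. It was 0 in replicates 1 and 2 alone, as for all genes, and 5 in replicates 3 and 4 alone, of which 4 were higher, where 15% of all genes were called. Single female controls moved it too, to 2, 3 and 4 without controls 1, 2 and 4, and it was 3 without active pain replicate 3, where 7.90% to 10.4% of all genes were called. Scaled by the fibre markers, which had a median of 0.41 here, 19.8% of all genes and 1 of the 34 passed, Cpt1a, lower at -1.998 (adjusted p = 0.0403). Slow fibre markers had a median of 2.38, 10 of 10 above 0 and 1 called. Macrophage and monocyte markers had a median of -2.65, with 13 of 15 called lower, and 3 of 4 T, NK and B cell markers tested were called lower (median -4.26). The 7 neutrophil markers tested were all below 0 (median -0.80) and the 9 adipocyte markers all above 0 (median 0.50), with 0 called. Mitochondrial genes took 5.17% ± 2.41 of the counts in sedentary pain and 8.77% ± 2.38 in active pain (SD, n = 4). The part of these cells and of the mitochondrial share in the differences was not tested.

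**Figure D4:**
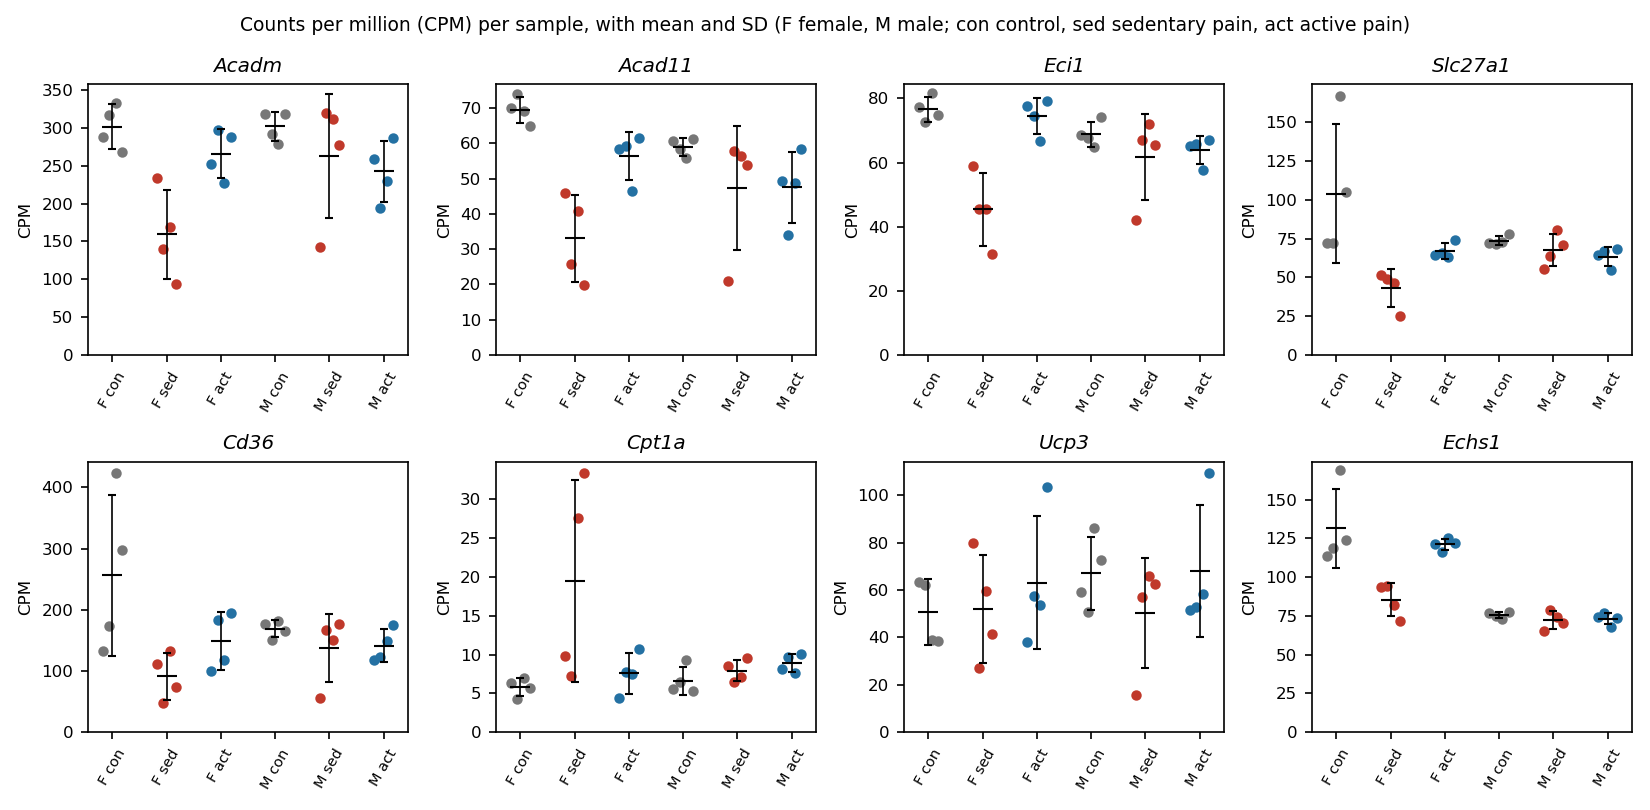
CPM of 8 of the genes in each sample, with mean and SD per group of 4 (F female, M male; con control, sed sedentary pain, act active pain). The F sed points of Acadm, Acad11, Eci1, Slc27a1 and Echs1 lie below all F con points, those of Cpt1a lie above them, and Ucp3 overlaps in all groups.

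Males showed 0 of 34 genes in each of the 3 comparisons, with 0 of 14404 genes called (0%) in any of them. DESeq2 also called 0 of the 34 in each, as did every other alternative tried. Counted by an unadjusted p under 0.05, sedentary pain against control had 0 genes, against 8.84% of all genes, and active against sedentary pain also 0, against 0.840%. Active pain against control had 1 such gene, against 7.25% (Hadha, log2 fold change -0.28 ± 0.12 SE, adjusted p = 0.634). The median log2 fold changes were -0.09, -0.10 and -0.01. Replicate 1 of male sedentary pain was unlike its group: the median of the 34 genes against the male control mean was -0.46 there and between -0.10 and 0.01 in the other 3. Its values were the lowest of the male sedentary pain group for Acadm, Acad11, Etfa, Etfdh, Eci1, Crat, Acacb and Hsdl2. Macrophage marker medians were 2.74 in that sample and 0.50 to 2.01 in the other 3. In the 2 comparisons with controls, which share those controls, Cpt1a had the log2 fold changes 0.28 ± 0.20 and 0.43 ± 0.20 (adjusted p = 0.639 and 0.634). Macrophage and monocyte markers summed to 80.3 to 175.2 CPM in male controls, 175.4 to 1063 CPM in sedentary pain and 280 to 671 CPM in active pain. Neutrophil markers summed to 0.699 to 5.67, 2.53 to 346 and 3.92 to 94.2 CPM in that order. The part of these cells in the Cpt1a values was not tested. In active pain against control, Slc27a1 and Hadha were the 2 genes without overlap, both lower, where 10.4% of all genes did not overlap and 4.06% were lower without overlap. In sedentary pain against control 0 genes were without overlap, against 8.07% of all genes. Slow and oxidative fibre markers summed to 314 to 1483 CPM in male controls, 512 to 854 CPM in sedentary pain and 59.6 to 676 CPM in active pain. Their part in the male values was not tested.

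Whether the changes differ between the sexes was tested on all 24 samples. For sedentary pain against control, 0 of the 34 genes and 0% of 15103 genes passed the threshold (lowest adjusted p, 0.432). An unadjusted p under 0.05 was found for 12 genes, against 9.57% of all genes. The difference, female change minus male change, was below 0 in 31 genes, against 50.3% of all genes, with a median of -0.42. It was -1.15 ± 0.32 for Slc27a1, -0.55 ± 0.16 for Echs1, -0.60 ± 0.22 for Eci1 and 1.47 ± 0.51 for Cpt1a (SE). In the same test macrophage and monocyte markers had a median of 2.23, with an unadjusted p under 0.05 for 7 of 15, and adipocyte markers a median of -2.54, with 4 of 9 tested. For active against sedentary pain, 0 genes passed (0% of all; lowest adjusted p, 0.228). An unadjusted p under 0.05 was found for 19, against 14.7% of all genes, and the median was 0.48. In the same test slow fibre markers had a median of 3.56, with an unadjusted p under 0.05 for 10 of 10. Macrophage and monocyte markers had a median of -2.55, with 9 of 15 under 0.05, and T, NK and B cell markers a median of -4.30, with 4 of 4. No marker passed the threshold, and the part of these cells was not tested. Largest by test were Hadha (0.64 ± 0.19), Acads (0.48 ± 0.15), Hadhb (0.65 ± 0.21), Eci1 (0.66 ± 0.22) and Echs1 (0.48 ± 0.16). The number of genes past the threshold for this difference became 11 without male sedentary pain replicate 1, where 14.1% of all genes were called, and 5 without female sedentary pain replicate 1, where 4.04% were. For active pain against control the median was 0.05, with 0 genes at an unadjusted p under 0.05, against 2.03%. DESeq2 called 0 in all 3 tests of a sex difference.

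Between the controls of the 2 sexes, 1 of the 34 genes differed, where 2.83% of all genes did. Echs1 was higher in female controls, 131 ± 25.5 CPM against 75.6 ± 1.92 CPM in male controls (SD, n = 4). Its log2 difference was 0.80 ± 0.11 (SE) with an adjusted p of 0.000189. The difference of Echs1 was 0.63 to 0.94 over 39 alternatives and passed the threshold in 38 of them, all but replicates 1 and 2 alone. Echs1 was the gene of the list whose lowest female control, 114 CPM, lay furthest in ratio above the highest male control, 77.7 CPM. By an unadjusted p under 0.05 there were 8 genes, against 14.9% of all genes. Besides Echs1 these were Cpt2, Pnpla2, Acads, Slc27a1 and Hadh, with log2 differences of 0.24 to 0.62, and Acacb and Lpin1, with -0.41 and -0.43. They did not pass the threshold, with adjusted p between 0.185 and 0.335. The sexes did not overlap in 9 genes, against 22.3% of all genes: Echs1, Cpt2, Acads, Acad11, Hadh and Etfb, higher in females, and Cpt1b, Crat and Acacb, lower. The 9 adipocyte markers tested had a median log2 difference of 2.35, with 3 called, in the same direction as Pnpla2 and Slc27a1. Slow and oxidative fibre markers summed to 596 to 2939 CPM in female and 314 to 1483 CPM in male controls. Macrophage and monocyte markers summed to 119 to 268 and 80.3 to 175 CPM, and fibroblast markers to 739 to 915 and 775 to 1099 CPM. The part of these cells and fibres was not tested.

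Levels were compared between genes per kilobase of the principal transcript. In female controls the highest means were those of Fabp3 (249 ± 70.7 CPM per kb, SD, n = 4), Pnpla2 (184 ± 102), Acadm (148 ± 14.3), Crat (144 ± 13.1) and Acadvl (135 ± 18.5). Pnpla2 ranged from 171 to 547 CPM between these controls, so its place in the order is not fixed, and neighbours in this order did not differ beyond their spread. The lowest were Cpt1b (0.23), Cpt1a (1.36), Acot2 (1.82) and Angptl4 (4.65). The place of Cpt1b is uncertain, because Gm44502 covers 81.4% of its exonic bases on the same strand. Exons of Dvl2 on the other strand overlap 42.9% of those of Acadvl. In male controls the order began with Fabp3 (285), Crat (163), Acadm (148), Pnpla2 (119.8) and Acadvl (114).

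The other genes of the pathway came from lists of 82 symbols outside the 34, of which 81 were found in the files. Of 78 tested in females, 45 differed in sedentary pain, 38 lower and 7 higher, with a median of -0.65, where 13.9% of all genes were lower and 19.6% higher. Among 21 regulators, 11 were lower and 1 higher. Klf15, a transcription factor of lipid use in muscle, went from 41.6 to 15.1 CPM (-1.48 ± 0.25, edgeR adjusted p = 0.00302), and Rxra, the partner of the PPARs, from 231 to 143 CPM (-0.71 ± 0.17, adjusted p = 0.0104). Among 17 peroxisomal genes 7 were lower and 3 higher. Abcd2, a peroxisomal transporter, fell by 1.79 ± 0.31 on the log2 scale (adjusted p = 0.00315) and Scp2 by 0.79 ± 0.17 (adjusted p = 0.00698). Among 23 further mitochondrial genes 11 were lower and 2 higher. Acadsb, for branched chains, fell by 0.84 ± 0.17 (adjusted p = 0.005) and Ech1 by 0.61 ± 0.14 (adjusted p = 0.00986). The thioesterase Acot9 was higher by 0.74 ± 0.11 (adjusted p = 0.00261), and the synthetase Acsl3 was lower (-0.66 ± 0.16, adjusted p = 0.0112).

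Among 17 genes of uptake and lipid stores, 9 were lower and 1 higher. The 2 lowest log2 fold changes over all these lists were those of Acaca and Dgat2. Acaca, the cytosolic acetyl-CoA carboxylase, counted above with the regulators, had 194 CPM in female controls and 14.9 CPM in sedentary pain (-3.73 ± 0.79, adjusted p = 0.00641), and Dgat2, of triglyceride synthesis, 122 and 10.01 CPM (-3.63 ± 0.74, adjusted p = 0.00573). Without female controls 3 and 4 together these were -0.99 for Acaca (adjusted p = 0.0332) and -1.24 for Dgat2 (adjusted p = 0.0359). Adipocyte markers moved with both genes: 8 of 9 tested were lower in sedentary pain (median -3.03), and their sum was 8846 and 6787 CPM in controls 3 and 4, 4872 and 4594 CPM in controls 1 and 2, and 1473 to 3886 CPM in sedentary pain. Car3, which muscle also expresses, made up much of this sum. The part of adipocyte RNA in these falls was not tested. Abhd5, the activator of the lipase Pnpla2, fell by 0.74 ± 0.17 (adjusted p = 0.00875). Without female controls 3 and 4 together, Ech1 (-0.55, adjusted p = 0.0529), Acsl3 (-0.67, adjusted p = 0.0535), Scp2 (-0.58, adjusted p = 0.0607) and Abhd5 (-0.61, adjusted p = 0.0699) no longer passed the threshold. Scaled by the fibre markers, Acadsb (-0.42, adjusted p = 0.167), Rxra (-0.27, adjusted p = 0.323), Scp2 (-0.35, adjusted p = 0.367), Abhd5 (-0.31, adjusted p = 0.408), Ech1 (-0.19, adjusted p = 0.569) and Acsl3 (-0.16, adjusted p = 0.743) did not. In replicates 1 and 2 alone Dgat2 was the 1 of these named genes still called, and in replicates 3 and 4 alone Acsl3 and Rxra were not (adjusted p = 0.115 and 0.0693). Acaca was also higher in female than in male controls (3.60 ± 0.62, adjusted p = 0.00154), as was G0s2, an inhibitor of Pnpla2 (1.70 ± 0.34, adjusted p = 0.00678), while Vldlr (-1.42 ± 0.27, adjusted p = 0.00421) and Acsl3 (-1.07 ± 0.24, adjusted p = 0.0171) were lower. None of these 4 differences between the controls passed without female controls 3 and 4 together (adjusted p 0.163 to 0.44). In active against sedentary pain 12 of 78 were higher and 2 lower in females, where 2.51% and 9.41% of all genes were, among them Klf15 (1.22 ± 0.25), Phyh (0.73 ± 0.15), Acad12 (0.48 ± 0.11) and Acot9 (-0.45 ± 0.11), all with adjusted p = 0.0328. None of these 4 passed the threshold without sedentary pain replicate 3 or 4, without active pain replicate 1, 2 or 4, or in replicates 1 and 2 alone. In males 0 of 77 passed in any of the 3 comparisons, by edgeR, and 1, 5 and 1 had an unadjusted p under 0.05, where 8.84%, 7.25% and 0.840% of all genes did.

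**Figure D5:**
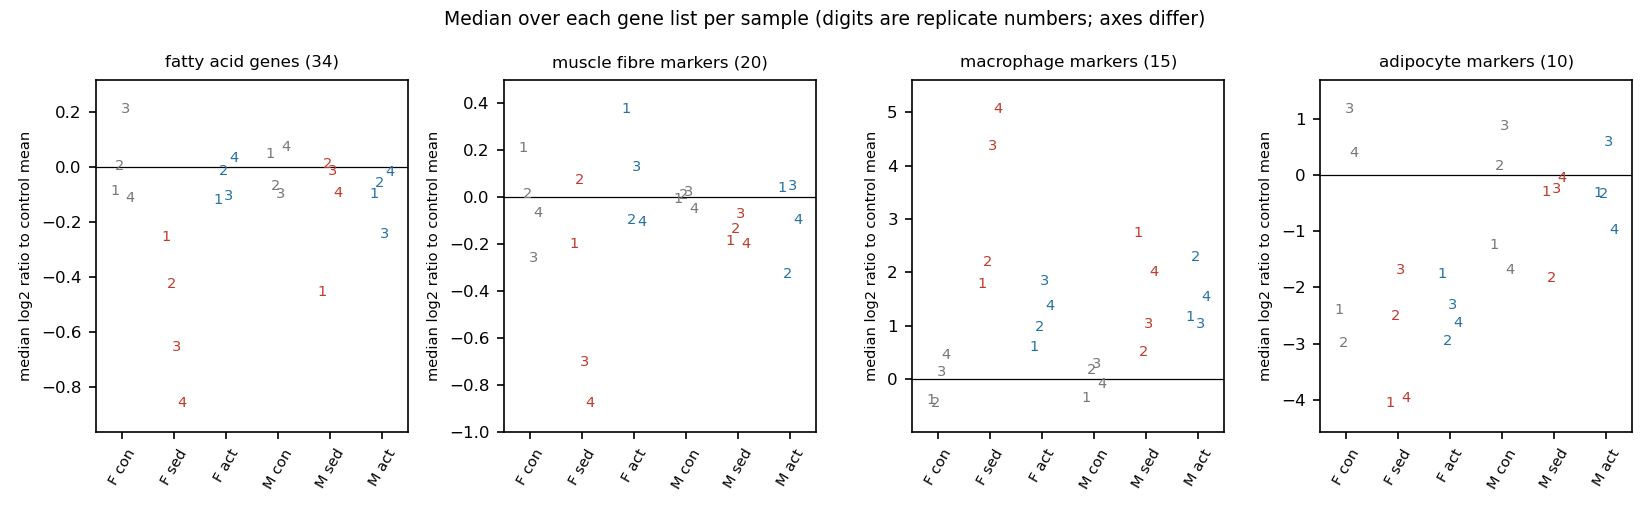
Median log2 ratio to the same-sex control mean (CPM + 1) over 4 gene lists in each sample; digits are replicate numbers and the vertical axes differ. In female sedentary pain the 34 fatty acid genes and the muscle fibre markers are lowest in replicates 3 and 4, in which the macrophage markers are highest, and the adipocyte markers split female controls 1 and 2 from 3 and 4.

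Because many of the genes fell together, the 250 bases before their RefSeq starts were searched on both strands for known binding motifs of regulators of the pathway. RefSeq windows (GRCm38.p6) were found for 28 of the 34 genes, 31 windows in all. The direct repeat bound by PPAR and RXR, 2 copies of AGGTCA with 1 base between them and up to 2 mismatches, was present in 4 windows (Cd36, Echs1, Etfa and Ucp3), and in 3.24% of 32851 windows of all genes. The NRF1 motif, GCGCA followed by its reverse complement, with up to 1 mismatch, was present in 4 (Acadm, Etfb, Etfdh and Hsdl2), against 5.2%. The ERR motif TCAAGGTCA was present in 0, against 0.387%, and the E-box CACGTG in 1 (Slc27a1), against 6.02%. Genes with and without a match were among the 19 that fell, and matches are letters in a window, not evidence of binding. The stretches of Acadm, Cd36 and Echs1, which fell in female sedentary pain, and of Ucp3, which did not pass the threshold, are shown with the match in capitals, on the strand of the gene and outside annotated exons.
Acadm, chr3:153944644-153944893, minus strand, NRF1 match: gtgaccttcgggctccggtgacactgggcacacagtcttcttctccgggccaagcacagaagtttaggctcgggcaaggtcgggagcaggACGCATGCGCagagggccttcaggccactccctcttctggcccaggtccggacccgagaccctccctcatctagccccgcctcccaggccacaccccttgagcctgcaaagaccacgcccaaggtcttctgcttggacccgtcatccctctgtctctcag
Cd36, chr5:17835897-17836146, minus strand, PPAR and RXR match on the other strand: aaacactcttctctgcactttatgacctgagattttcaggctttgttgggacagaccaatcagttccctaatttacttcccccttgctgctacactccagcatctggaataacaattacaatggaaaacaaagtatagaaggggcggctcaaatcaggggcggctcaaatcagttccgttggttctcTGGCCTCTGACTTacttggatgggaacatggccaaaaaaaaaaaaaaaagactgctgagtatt
Echs1, chr7:140116477-140116671, minus strand, PPAR and RXR match: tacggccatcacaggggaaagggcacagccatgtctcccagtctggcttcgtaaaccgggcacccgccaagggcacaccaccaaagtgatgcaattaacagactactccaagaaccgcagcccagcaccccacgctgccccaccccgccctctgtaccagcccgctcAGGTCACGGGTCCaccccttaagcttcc
Ucp3, chr7:100472741-100472989, plus strand, PPAR and RXR match: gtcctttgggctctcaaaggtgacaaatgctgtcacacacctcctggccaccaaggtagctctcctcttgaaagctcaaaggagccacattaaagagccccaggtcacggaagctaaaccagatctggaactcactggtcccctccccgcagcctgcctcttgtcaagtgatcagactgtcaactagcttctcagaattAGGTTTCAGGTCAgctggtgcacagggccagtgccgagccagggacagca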

How the data were processed

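Counts per gene were deposited by the authors, 1 file per sample with 54532 genes. The submitters' processing notes name HISAT2 2.1.0, Salmon 0.9.1, featureCounts, DESeq2 1.24.0 and the build GRCm38.p6, and the strand setting and annotation release are not given in the sources used here. The deposited counts were analysed in R 4.3.3 with edgeR 4.0.16: genes were kept with filterByExpr (minimum count 10), scaled by TMM and tested with the quasi-likelihood F test, two-sided, with Benjamini-Hochberg adjustment over all genes tested and a threshold of 0.05. Each sex was fitted on its 12 samples, and sex differences and the controls of the 2 sexes on all 24. CPM used the TMM factors of all 24 samples, and ratios per sample a pseudocount of 1. The 95% intervals were taken from the SE with a normal approximation, which makes them too narrow for so few samples. Positions and lengths came from GENCODE M21 (GRCm38). Alternatives used DESeq2 1.42.0 and sva 3.50.0, other scalings, filters, batches and left-out libraries.

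The 34 genes and all other lists were chosen with earlier results of these data known. Values in every sample are given for up to 16 genes past the threshold by smallest adjusted p, and for Cpt1a, Cpt1b, Ucp3, Angptl4, Cd36 and Fabp3 whatever their result. Of the other pathway genes, up to 12 are named by smallest adjusted p for female sedentary pain against control and up to 4 for each other comparison. Among these other pathway genes, 1 that the rule selects is not reported here.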

Additional observations from a re-analysis of the deposited data

Results flagged for a closer look

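Within groups of 4 samples, 12 of 204 sets of values had a sample far from the other 3 (past Dixon's 95% critical value), where chance gives about 1 in 20, or 10.2. Of the 12, 5 were low values of male sedentary pain replicate 1. Acad11 had 21.1 CPM there against 53.9 to 58.0 in the others, Hsdl2 15.5 against 54.5 to 61.1, and Etfdh 52.6 against 125 to 137. Acadl had 119.6 CPM against 172 to 175, and Acacb 237 against 363 to 379. Its macrophage marker sum was the highest of the male controls and male sedentary pain samples, at 1063 CPM, and the part of other cells in these values was not tested.

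Female control replicate 3 was high for 3 genes: Hadh at 219 CPM against 158 to 162 in the other controls, Decr1 at 149 against 99.7 to 106, and Acads at 94.3 against 85.6 to 86.9. The other 4 were Eci2 in female active pain replicate 4 (68.3 CPM, others 58.1 to 59.4) and in male active pain replicate 3 (51.7 CPM, others 58.2 to 59.3), Ucp3 in male active pain replicate 4 (109 CPM, others 51.6 to 58.3), and Cpt1b in male control replicate 4 (1.51 CPM, others 0.848 to 0.874).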

How the results depend on the processing

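No called gene of the 34 changed direction under any alternative, and males had 0 called genes in all 28 alternatives of each comparison. For female sedentary pain against control, where 20 genes and 33.5% of all genes passed, the count was 1 in replicates 1 and 2 alone (1.67% of all genes), 2 when scaled by muscle fibre markers (29.2%), 12 with only the 2 groups compared (20.1%), 4 without female controls 3 and 4 together (16.5%), and 9 to 24 with single libraries left out (16.9% to 44.9%). For female active against sedentary pain, where 7 and 11.9% of all genes passed, it was 15 with DESeq2 (20.8%), 14 with the library-number batch (18.9%), 12 with GC content and length (16.2%), 12 with 1 surrogate variable (15.1%) and 16 with all 24 samples in 1 fit (15.7%). It was 1 with fibre marker scaling (19.8%), 0 with no filter on low counts (0.667%), 0 as for all genes in replicates 1 and 2 alone, with only the 2 groups compared or without female controls 3 and 4 together, and 0 to 19 with single libraries left out (0% to 29%).

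The sex difference of sedentary pain against control was called in 8 genes in replicates 3 and 4 alone (8.51% of all genes) and in 4 without male sedentary pain replicate 1 and male active pain replicate 2 together (3.85%), and that of active against sedentary pain in 4 in replicates 3 and 4 alone (7.71%) and in 0 to 11 with single libraries left out (0% to 14.1%). Between the controls of the sexes the count was 0 in replicates 1 and 2 alone (0.08% of all genes), 2 in replicates 3 and 4 alone (5.59%) and 3 with 1 surrogate variable (5.32%). The causes were not tested.

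Replicate numbers showed no clear pairing of the samples. Same-numbered female samples had a mean correlation of deviations of 0.109 (-0.32 to 0.415), against -0.0363 for other numbers. Male samples had 0.0131 (-0.647 to 0.592), against 0.00674. Closest to their own number were 3 of 12 female and 4 of 12 male samples. So few samples cannot exclude a pairing. With the replicate block, 16 genes were called for female sedentary pain against control (25.8% of all genes) and 4 for active against sedentary pain (11.2%), or 11 with GC content and length as well (16.8%). For female sedentary pain against control the block ended the calls of Acsl1 (-1.09, adjusted p = 0.0577) and Cpt2 (-0.476, adjusted p = 0.0639). It also ended those of Acaa2 (-0.58, adjusted p = 0.0511) and Etfdh (-0.846, adjusted p = 0.0557).

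Genes not called could change sign in female sedentary pain, as 43 of their 391 values under the alternatives did, and those of Fabp3, Ucp3 and Angptl4 are given here. Fabp3 was 0.15 with fibre marker scaling. Ucp3 was -0.00474 with no filter, -0.0178 with the replicate block, -0.24 in replicates 1 and 2 alone, -0.0053 without mitochondrial genes, -0.19 with GC content and length, -0.21 with the block as well, -0.30 without female controls 3 and 4, and -0.26 to 0.232 with single libraries left out. Angptl4 was -0.85 in replicates 3 and 4 alone, -0.0139 with GC content and length, and -0.245 to 1.59 with single libraries left out.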
